A study of Drosophila melanogaster with 30 samples.

Results

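The aminoacyl-tRNA synthetase genes of Drosophila were followed through m6A-IP sequencing of fly heads. They were taken by name, as every row of the deposited gene tables whose name begins with a 3-letter amino acid code followed by RS, together with GluProRS, which gave 33 of 17562 genes. Of these, 15 carry the suffix -m and are called mitochondrial here, and the 18 without it are called cytosolic. No -m gene was present for glutamine, glycine, histidine, lysine or threonine, and whether genes called cytosolic also make mitochondrial enzymes was not resolved. The rule leaves out alpha-PheRS and beta-PheRS, the subunits of the cytosolic phenylalanine enzyme, and Slimp, a seryl-tRNA synthetase paralog. All 33 members passed the filter on low counts in every comparison below.

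The libraries came from heads of adult males carrying the ubiquitous driver daGal4, aged 1-2 days after eclosion and pooled at 200 heads per replicate. The 5 groups, of 3 replicates each, were daGal4 > KK control without heat (control basal), daGal4 > dTrmt10A RNAi without heat (RNAi basal), daGal4 > UAS-dTrmt10A without heat (UAS basal), and the control and UAS-dTrmt10A genotypes after a heat shock (HS) of 30 min at 38.5 °C (control HS and UAS HS), with the tissue taken at once. Every group thus carries the driver, and the manipulation reaches all cell types of the head. dTrmt10A is CG14618, the fly homolog of a tRNA m1G methyltransferase. From each sample of fragmented polyA+ RNA 10% was kept as input and the rest was precipitated with an antibody to m6A, labelled SYS in all IP libraries although the study's methods also name another source for some replicates, so that input counts measure RNA level and the ratio of IP to input measures how far a whole transcript was enriched by the antibody. Because whole heads were used, fewer cells of a type and less RNA per cell cannot be told apart. The labels do not say whether replicates came from separate crosses, so p-values measure the spread between these pools of heads.

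Aminoacyl-tRNA synthetases join each amino acid to its tRNA, using ATP, and supply the charged tRNAs that ribosomes read. Animal cells keep a cytosolic set and a mitochondrial set, the latter made from nuclear genes and imported to serve the few proteins translated inside mitochondria. The enzymes fall into a pair of structural classes, I and II, that share no common fold. In mammals several cytosolic enzymes are held together with scaffold proteins, the AIMPs, in a multisynthetase complex. A shortage of charged tRNA is sensed by the kinase Gcn2. In nervous tissue, defects of several of these enzymes are known from human neuropathies and mitochondrial encephalopathies.

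Input libraries held 20110909 to 51006574 counts and IP libraries 16255688 to 30456825. CG14618 stood at 8.29, 7.45 and 8.63 CPM (counts per 1e6, TMM-scaled) in control basal inputs, at 3.77, 3.84 and 4.03 in RNAi basal inputs and at 146, 164 and 189 in UAS basal inputs, so the genotypes matched their labels. In heated inputs it stood at 5.31, 5.78 and 5.88 CPM in control and at 247, 251 and 234 CPM in UAS-dTrmt10A heads. On this scale CG14618 fell with heat in control heads (log2 fold change -0.53) and rose in UAS-dTrmt10A heads (0.56). The UAS groups thus differ in dTrmt10A RNA as well as in heat, and its part in the heat comparisons was not tested. Heat shock protein and DnaJ-1 genes took 0.132 to 0.172% of control basal input counts and 14.6 to 14.9% of control HS counts. Summed markers of neurons, photoreceptors, glia, fat body and muscle were present in all inputs, whereas gut and testis markers stayed at or below a summed 2.0 CPM. For neurons the sum was 2876 to 2971 CPM in control basal and 3172 to 3325 in control HS inputs, and for muscle 5780 to 6953 and 7065 to 9274 CPM. In UAS-dTrmt10A heads the neuron sum was 2779 to 2873 CPM without heat and 3492 to 3623 after it, and the muscle sum 6267 to 7743 and 8823 to 9952. The glia sum was 1902 to 1939 and 2017 to 2054 CPM in control, and 1814 to 1972 and 2108 to 2196 CPM in UAS-dTrmt10A heads. These 3 sums were higher after heat without overlap in both genotypes, while those of fat body overlapped in both and those of photoreceptors in control heads, and their part in the heat results was not tested.

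Cytosolic synthetase transcripts were the more abundant set. In control basal inputs the median level per kilobase of exon was 13.5 CPM for the cytosolic genes and 5.27 CPM for the mitochondrial genes. The order nevertheless began with a mitochondrial gene, PheRS-m (FBgn0275436, chromosome 2R 13968308-13969902, dm6), which charges mitochondrial tRNA with phenylalanine as a single chain. Its level per exon kilobase was 38.8, 34.1 and 40.8 CPM in the 3 libraries, above every library of the next gene. TyrRS (FBgn0027080, 3L 16417349-16419302), the cytosolic tyrosine enzyme, followed at 25.1, 28.5 and 28.8 CPM per kilobase. ThrRS (FBgn0027081, 2L 12103751-12107170), the threonine enzyme, stood at 24.5, 26.8 and 26.6. The libraries of TyrRS and ThrRS overlapped, and so did those of 20 of the 32 neighbouring pairs in the order.

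The lowest levels were all mitochondrial. GluRS-m (FBgn0036629, 3L 16415292-16417177), the glutamate enzyme, gave 2.09, 1.87 and 2.05 CPM per exon kilobase. MetRS-m (FBgn0027083, 3R 14249043-14259991), the methionine enzyme, gave 1.81, 1.95 and 2.21. ValRS-m (FBgn0035942, 3L 8961274-8964769), the valine enzyme, gave 1.96, 1.97 and 1.48. These 3 overlapped one another, and PheRS-m exceeded ValRS-m 21.0-fold. The choice of length matters for some of them, since per kilobase of coding sequence MetRS-m rose to 4.92 CPM. TyrRS (30.9 CPM) then came behind ThrRS (33.5 CPM), HisRS (32.6 CPM) and AsnRS (31.9 CPM), among others. PheRS-m stayed first at 42.6 CPM and ValRS-m last at 1.97 CPM. The spread between replicates was small throughout, with a median coefficient of variation over the 33 genes of 5.85% and a largest value of 16.9%.

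**Figure D1:**
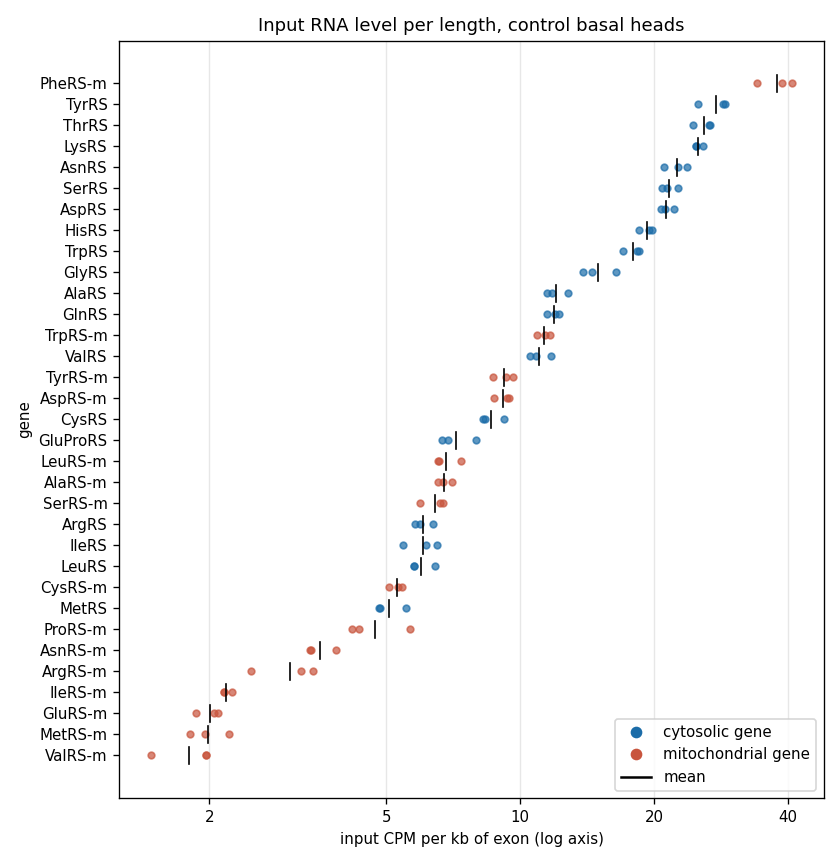
Input level of each synthetase gene in the 3 control basal libraries, in CPM per kilobase of exon on a log axis, ordered by mean, with cytosolic and mitochondrial genes coloured apart. PheRS-m leads at 34.1 to 40.8, and mitochondrial genes fill the low end, down to ValRS-m at 1.48 to 1.97.

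For 14 amino acids both a cytosolic and a mitochondrial gene were measured. The cytosolic gene was higher per exon kilobase for 13 of them, in each case with no overlap between the libraries of the 2 genes. The ratio of cytosolic to mitochondrial level had a median of 2.43 and reached 6.35 for asparagine and 6.12 for valine. Leucine was the exception, with LeuRS at 5.99 and LeuRS-m at 6.82 CPM per kilobase, a ratio of 0.878 with no overlap between libraries.

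Neither change of dTrmt10A dose without heat moved a synthetase transcript past the threshold of an adjusted p of 0.05. With dTrmt10A RNAi, 0 of 33 members passed the test of edgeR (quasi-likelihood F, p-values adjusted by Benjamini-Hochberg over all genes), against 0.714% of all 10225 genes tested, and 0 members had an unadjusted p below 0.05. The median log2 fold change of the members was 0.01 (all genes 0.00). GlnRS, the cytosolic glutamine enzyme, had one of the smallest p-values, with RNAi libraries at 34.9, 30.9 and 30.8 CPM and control libraries at 28.1, 30.1 and 29.4 CPM. Its log2 fold change was 0.14 (SE 0.07, adjusted p = 0.527). ValRS-m stood at 8.07, 6.56 and 6.98 CPM with RNAi and at 6.39, 6.40 and 4.82 in control, a log2 fold change of 0.30 (SE 0.15, adjusted p = 0.553). In both genes the RNAi libraries were the higher ones without overlap, but by amounts close to the spread within a group.

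With UAS-dTrmt10A and no heat, 0 of 33 members passed the test, against 2.81% of all genes, and the median log2 fold change was -0.02. DESeq2's Wald test called 0 members as well. AspRS (FBgn0002069, 2R 12877004-12883168), the cytosolic aspartate enzyme, was the only member with an unadjusted p below 0.05. Its libraries stood at 44.1, 41.9 and 41.8 CPM in UAS basal heads and at 50.1, 47.9 and 46.9 CPM in control basal heads. The groups did not overlap, and the log2 fold change was -0.19 (SE 0.05, adjusted p = 0.133 in edgeR's quasi-likelihood test). LeuRS-m, the mitochondrial leucine enzyme, stood at 18.9, 18.9 and 17.3 CPM against 19.8, 19.8 and 22.2 CPM in control (log2 fold change -0.17, adjusted p = 0.313).

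Heat lowered many synthetase transcripts. In control heads 20 of 33 members fell and 0 rose in the same edgeR test, where 23.1% of all 10219 genes fell and 19.3% rose. The median log2 fold change was -0.39 over the members (all genes 0.00), and 29 of 33 lay below 0. Both sets contributed, with 10 of 18 cytosolic genes lower (median -0.21) and 10 of 15 mitochondrial genes lower (median -0.46). The summed level of the 33 genes went from 947 ± 18.3 CPM without heat to 802 ± 8.65 CPM with it (SD, n = 3).

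The largest falls in control heads were mitochondrial. CysRS-m (FBgn0033900, 2R 14159096-14161262), the cysteine enzyme, went from 10.7, 11.5 and 11.2 CPM to 6.02, 6.71 and 5.55 CPM, a log2 fold change of -0.87 (SE 0.10, adjusted p = 0.000330). AspRS-m (FBgn0051739, 2L 16827078-16832093), the aspartate enzyme, went from 38.7, 41.7 and 41.4 CPM to 25.3, 24.8 and 25.1 CPM (log2 fold change -0.70, SE 0.06, adjusted p = 5.82e-05). ProRS-m (FBgn0027082, 3L 2650161-2651850), the proline enzyme, went from 6.35, 6.59 and 8.56 CPM to 4.61, 4.34 and 3.77 CPM (log2 fold change -0.76, SE 0.16, adjusted p = 0.00519). In these 3 genes every heated library lay below every unheated one. SerRS-m (FBgn0021750, 3R 15340667-15343218), the serine enzyme, fell in the same way from 16.8, 15.2 and 17.2 CPM to 11.0, 9.97 and 10.7 CPM (log2 fold change -0.64, SE 0.09, adjusted p = 0.000573). AsnRS-m (FBgn0034177, 2R 17001994-17003599), the asparagine enzyme, went from 5.01, 5.73 and 5.0 CPM to 1.84, 4.29 and 2.75 CPM (log2 fold change -0.82, SE 0.26, adjusted p = 0.0299). That gene rests on 34 to 83 counts per heated library, its heated replicates spread widely, and it passed in only 1 of the 6 fits that left out a library. ArgRS (FBgn0027093, X 15841769-15844145), the cytosolic arginine enzyme, showed the largest cytosolic fall, from 13.6, 12.7 and 12.4 CPM to 8.29, 7.80 and 8.84 CPM (log2 fold change -0.64, SE 0.09, adjusted p = 0.000805).

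In UAS-dTrmt10A heads 16 of 33 members fell with heat, against 22.0% of all 10352 genes, and 1 rose, against 18.7%. The median log2 fold change was -0.28. Without replicate 1 of UAS HS, 11 members in all were called instead of 17. Here the mitochondrial set carried most of the falls, with 11 of 15 genes lower (median -0.48) beside 5 of 18 cytosolic genes (median -0.16). The summed level went from 943 ± 37.7 CPM to 812 ± 12.5 CPM (SD, n = 3). Cytosolic and mitochondrial sums, as group means, went from 696 to 632 CPM and from 247 to 179 CPM, beside 691 to 616 and 256 to 186 CPM in control heads.

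ProRS-m fell furthest in UAS-dTrmt10A heads, from 6.83, 6.85 and 6.79 CPM to 2.38, 3.83 and 3.49 CPM (log2 fold change -1.06, SE 0.17, adjusted p = 0.00158). LeuRS-m (FBgn0027085, 3L 4825853-4829038) went from 18.9, 18.9 and 17.3 CPM to 11.1, 12.2 and 9.39 CPM (log2 fold change -0.75, SE 0.11, adjusted p = 0.00107). ValRS-m went from 5.90, 7.61 and 8.25 CPM to 4.24, 3.88 and 5.75 CPM (log2 fold change -0.64, SE 0.19, adjusted p = 0.0250). The heated libraries lay below the unheated ones in all 3 genes, though ValRS-m only just and with a call in 2 of the 6 fits that left out a library. AspRS-m went from 39.9, 38.3 and 37.9 CPM to 24.3, 25.0 and 26.2 CPM (log2 fold change -0.60, SE 0.06, adjusted p = 0.000198). SerRS-m went from 18.0, 15.3 and 15.3 CPM to 10.9, 10.1 and 11.3 CPM (log2 fold change -0.57, SE 0.10, adjusted p = 0.00202). PheRS-m went from 57.5, 54.6 and 52.7 CPM to 37.8, 37.6 and 36.6 CPM (log2 fold change -0.54, SE 0.06, adjusted p = 0.000306). All 6 of these genes are mitochondrial, and none of their groups overlapped.

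**Figure D2:**
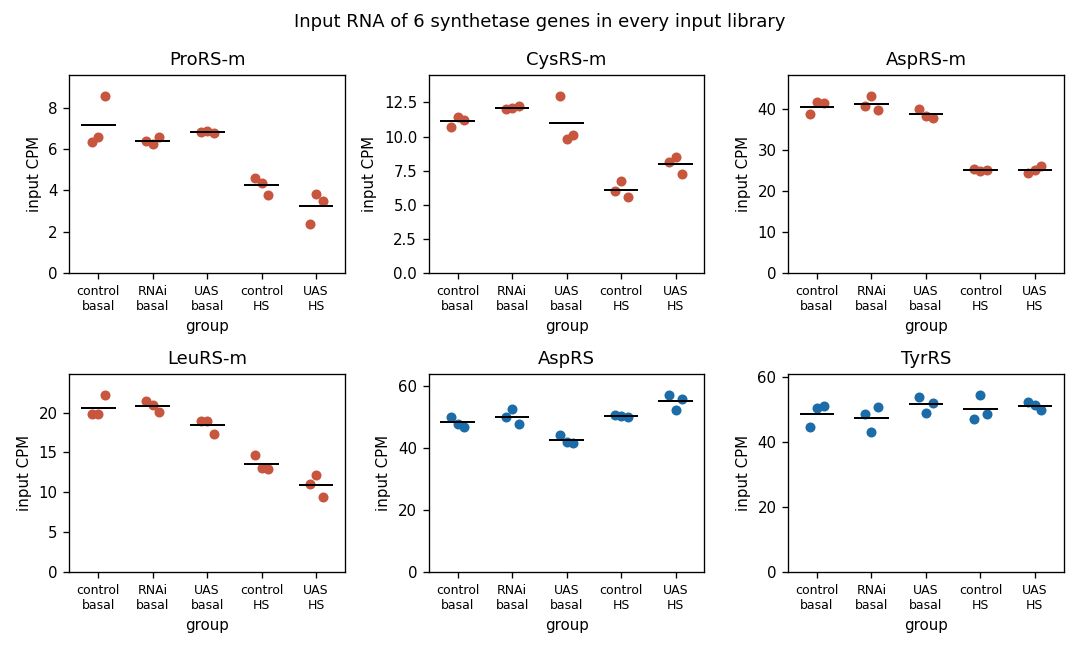
Input CPM of 6 synthetase genes in each of the 15 input libraries, with a bar at each group's mean; each panel has its own axis from 0. ProRS-m, CysRS-m, AspRS-m and LeuRS-m are lower in both heated groups, AspRS is higher in UAS HS (52.4 to 57.2) than in UAS basal (41.8 to 44.1), and the groups of TyrRS overlap.

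AspRS was the member that rose. In UAS-dTrmt10A heads it went from 44.1, 41.9 and 41.8 CPM to 57.2, 52.4 and 56.0 CPM (log2 fold change 0.39, SE 0.06, adjusted p = 0.00165), and it passed in all 6 fits that left out a library. The rise depends on scaling. With total library size in place of TMM the log2 fold change of AspRS was 0.02, and it was -0.30 in control heads. In control heads it stood at 50.1, 47.9 and 46.9 CPM without heat and at 50.6, 50.2 and 50.1 CPM with it (log2 fold change 0.05, SE 0.06, adjusted p = 0.456). The difference between these responses, the interaction of heat and genotype, was 0.32 (SE 0.08), with an adjusted p of 0.107 in edgeR's quasi-likelihood test and a call in DESeq2's Wald test (0.34, adjusted p = 0.0103). Antisense and neighbouring genes cover the exons of AspRS, with asRNA:CR45141 on the opposite strand over 63.9% of them, and the counting is not stated to use strand. Reads from the shared stretch may therefore be missing from the counts of AspRS.

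The interaction called 0 of 33 members in edgeR, against 0.0379% of all 10544 genes called, with 6 members at an unadjusted p below 0.05. Such counts at an unadjusted p, here and below, lack the share of all genes and are not a result about the members. After AspRS, LeuRS had the smallest p (interaction 0.31, adjusted p = 0.261). The difference between genotypes in the share of cytosolic genes that fell was therefore not carried by a called gene, and it was not itself tested. UAS-dTrmt10A against control within heat-shocked heads likewise called 0 of 33 members, against 6.53% of all genes, with 11 members at an unadjusted p below 0.05 and 0 called by DESeq2's Wald test. MetRS-m came nearest, at a log2 difference of -0.43 (SE 0.12, adjusted p = 0.0694 in edgeR's quasi-likelihood test), followed by GlnRS at 0.23 (adjusted p = 0.0872). Same-numbered inputs of these groups deviated together, and with the replicate block the fit again called 0 members (10 at an unadjusted p below 0.05), with adjusted p of 0.0749 for MetRS-m and 0.0783 for GlnRS.

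The responses of the control and UAS-dTrmt10A genotypes rest on separate libraries and can be set side by side. The genes lower in both were AlaRS-m, ArgRS, AsnRS, AspRS-m, CysRS-m, IleRS, IleRS-m, LeuRS-m, PheRS-m, ProRS-m, SerRS-m, ValRS and ValRS-m. These 13 were 65.0% of the members lower in control and 81.3% of those lower in UAS-dTrmt10A heads. Over all genes, the 1727 lower in both were 73.3% and 76.0% of the respective lists. Across the 33 members the log2 fold changes of the 2 genotypes had a Spearman rho of 0.80 and a Pearson r of 0.75 (all genes rho 0.78, n = 10115), where genes are not independent replicates. Of the 13, ArgRS, AspRS-m, IleRS, LeuRS-m, PheRS-m, ProRS-m, SerRS-m and ValRS passed in all 6 fits that left out a library in both genotypes. AsnRS-m, GlnRS, GluProRS, GlyRS, LeuRS, MetRS and ThrRS passed in control only, and ArgRS-m, CysRS and MetRS-m in UAS-dTrmt10A only. Of the latter, MetRS-m passed in 6, ArgRS-m in 3 and CysRS in 0 of the 6 fits that left out a library, and of the former GlnRS, GluProRS and LeuRS passed in all 6, MetRS in 4, GlyRS and ThrRS in 2 and AsnRS-m in 1. AlaRS, GluRS-m, HisRS, LysRS, SerRS, TrpRS, TrpRS-m, TyrRS and TyrRS-m passed in neither genotype, with log2 fold changes from -0.37 for GluRS-m to 0.09 for HisRS in control heads. GluRS-m held 45 to 97 counts per library in the control groups.

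**Figure D3:**
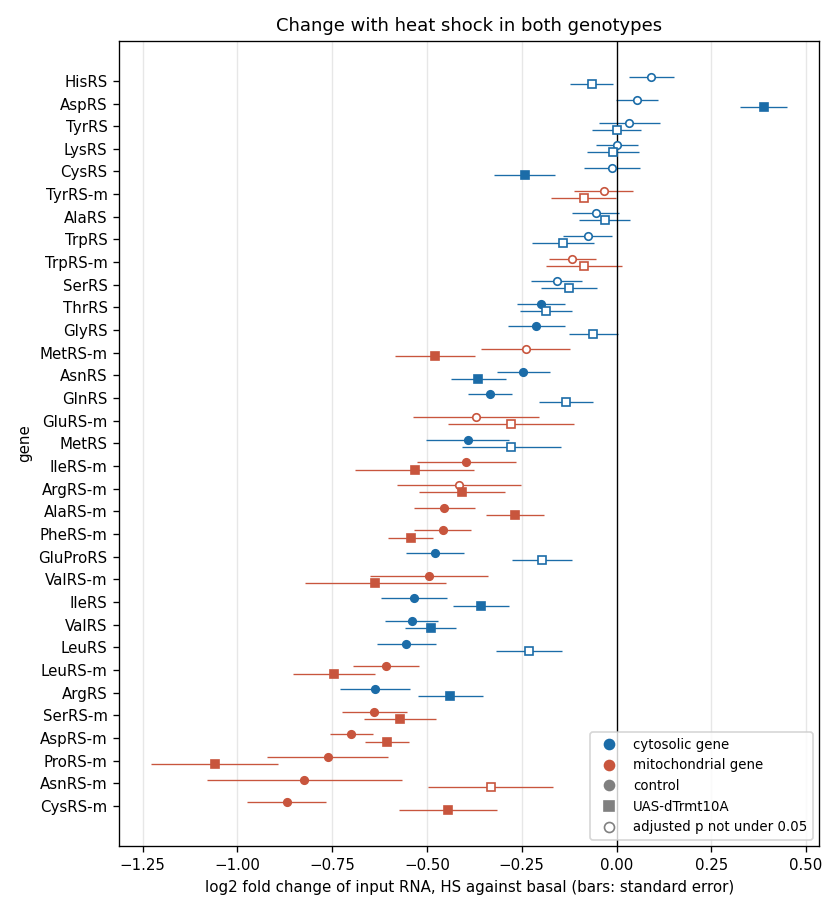
Log2 fold change of input RNA with heat shock for each of the 33 genes in control and in UAS-dTrmt10A heads, with standard errors, from edgeR. Most genes lie below 0 in both genotypes, mitochondrial genes form most of the low end, and AspRS is the exception in UAS-dTrmt10A heads at 0.39.

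These falls are relative to the other transcripts of the library. TMM scaling, used above, sets the bulk of genes near 0, whereas scaling by the total library size counts the heat shock transcripts against every other gene. Under total library size 33 of 33 members fell in control heads, with 60.5% of all genes, and 32 of 33 in UAS-dTrmt10A heads, with 58.8%. The members' median was then -0.75 beside -0.36 for all genes in control heads, and -0.64 beside -0.37 in UAS-dTrmt10A heads. A change of scaling shifts every gene by nearly the same amount. The members' distance from the median gene, -0.39 and -0.27, could therefore not change.

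Less abundant members tended to have the lower heat log2 fold changes. Spearman's rho between heat log2 fold change and average log2 CPM was 0.56 over the 33 members in control and 0.61 in UAS-dTrmt10A heads. Over the annotated protein-coding genes tested it was 0.18 (n = 9135) and 0.27 (n = 9234). The corresponding values for exon GC content were 0.54 and 0.54, beside -0.04 and -0.05. These are descriptions over genes that share the same libraries. For the 14 amino acids with both genes, the mitochondrial gene had the lower log2 fold change in 9 in control and in 11 in UAS-dTrmt10A heads.

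The 8 cytosolic enzymes that belong to the multisynthetase complex in mammals, a group considered after the values were seen, were GluProRS, IleRS, LeuRS, GlnRS, MetRS, LysRS, ArgRS and AspRS. In control heads 6 of these 8 fell (median -0.44), beside 4 of the other 10 cytosolic genes (median -0.12). In UAS-dTrmt10A heads 2 of the 8 fell and 1 rose (median -0.21), beside 3 of the 10 (median -0.13). Over all genes 23.1% fell in control and 22.0% in UAS-dTrmt10A heads, a share to which the latter counts are close. GluProRS, a fused enzyme for glutamate and proline, was among those lower in control only (log2 fold change -0.48 against -0.20 in UAS-dTrmt10A heads, where its adjusted p was 0.0776).

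Other genes around tRNA charging were counted as lists, to be read against all genes, of which 23.1% fell and 19.3% rose in control heads and 22.0% fell and 18.7% rose in UAS-dTrmt10A heads. Of the 3 synthetase subunits outside the name rule, all fell in control heads, namely Slimp (log2 fold change -0.74), beta-PheRS (-0.36) and alpha-PheRS (-0.23), and Slimp alone fell in UAS-dTrmt10A heads (-0.66). Of the 3 scaffolds, AIMP2 (-0.31 and -0.28) and AIMP3 (-0.31 and -0.35) fell in control and in UAS-dTrmt10A heads. GatA, a subunit of the amidotransferase that makes mitochondrial glutaminyl-tRNA, fell by 0.56 and 0.64 on the log2 scale, and was 1 of 2 tested subunits to do so. Among 10 elongation factors, which take charged tRNA to the ribosome or move it on, the cytosolic exchange factor eEF1beta rose in both genotypes (0.36 and 0.30) and the mitochondrial exchange factor mEFTs fell in both (-0.31 and -0.50). The mitochondrial translocase mEFG1 fell in control heads (-0.22). Most factors of that list did not pass.

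In the list for the response to uncharged tRNA, 3 of 6 tested genes rose and 1 fell in control heads, and 2 rose and 1 fell in UAS-dTrmt10A heads, where so short a list lies near the shares of all genes just given. Nmdmc, a mitochondrial folate enzyme, rose in control (0.64) and in UAS-dTrmt10A heads (0.70), and AsnS, asparagine synthetase, rose by 0.32 and 0.43. Ldh, lactate dehydrogenase, rose in control heads (0.25). Gcn2 itself fell by 0.49 and 0.37 on the log2 scale. Nmdmc was also higher in UAS-dTrmt10A than in control heads, by 0.94 without heat and 0.98 with it, whereas Ldh was lower with heat (-0.43). crc, the fly ATF4, and Thor, the 4E-BP, did not pass with heat.

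The sequence upstream of the members was searched because 13 of them fell together. In the 250 bases before each gene start the DNA replication-related element TATCGATA was present in 4 of 33 members (12.1%) and in 7.76% of 13307 protein-coding genes. The E-box CACGTG was present in 2 members, GlnRS and LeuRS-m (6.06%, against 2.86%). The heat shock element, searched as GAA, TTC and GAA in this order with 2 free bases between them, was found in 0 members (0.346% of all genes), and TTGCATCA, part of an ATF4 site, in 0 members (0.676%). Both strands were searched, and a match says only that these letters are present. The 4 windows with TATCGATA are shown because they hold both members that fell in both genotypes, ArgRS and IleRS, and members that did not pass, AlaRS and TrpRS. Each is on the gene's strand in dm6, from RefSeq, with the motif in capitals, which starts 34, 42, 19 and 72 bases before the respective gene.
ArgRS, chrX:15844162-15844189, minus strand: ctgttatcgtTATCGATAggcgacgtgt
IleRS, chr3L:22288613-22288640, plus strand: cggaacctacTATCGATAtcgcgaaccc
AlaRS, chr2L:8381766-8381793, minus strand: tctctaaatcTATCGATAtctcatccag
TrpRS, chr3R:9266959-9266986, minus strand: tatttctcatTATCGATAtttttaacag
The windows of ArgRS and IleRS lie outside annotated exons, and those of AlaRS and TrpRS lie in exons of CG13392 and Vps16A.

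In the IP, synthetase transcripts were mostly depleted relative to input. In control basal heads 23 of 33 members were lower in IP than in input and 3 were higher in edgeR's quasi-likelihood test, where 34.6% of all 10080 genes were lower and 35.3% higher. The median log2 IP/input ratio was -0.36 (all genes -0.05), and 0 of 15 mitochondrial genes were higher in any of the 5 groups. The 26 calls dropped to 17 without replicate 2 and to 15 without replicate 3. A ratio below 0 says that the antibody recovered less of a whole transcript than of the typical one, and gives neither the number nor the place of m6A sites.

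HisRS (FBgn0027087, X 18515428-18520445), the histidine enzyme, had the highest ratio. Its log2 IP/input was 0.45, 0.49 and 0.39 in the 3 control basal replicates, with a fitted value of 0.46 (SE 0.07, adjusted p = 0.000185). SerRS (FBgn0031497, 2L 3035493-3037403), the cytosolic serine enzyme, gave 0.11, 0.22 and 0.32 (fitted 0.23, SE 0.07, adjusted p = 0.0155). CysRS (FBgn0027091, 2R 16143147-16145906), the cytosolic cysteine enzyme, gave 0.26, 0.21 and 0.18 (fitted 0.24, SE 0.08, adjusted p = 0.0285). All replicates of these 3 genes lay above 0. The call of HisRS held under total library size, with values of 0.21 to 0.54 over the 5 groups, whereas CysRS fell to 0.08 in control basal heads without a call. SerRS was then called in UAS basal heads only and stood at -0.02 in control HS heads. In control HS heads total library size took HisRS from 0.48 to 0.21, and the other members shifted by a like amount. Exons of HisRS overlap those of Bx on the same strand over 8.91% of their length, so reads from that part may be missing from its counts.

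At the other end stood IleRS (FBgn0027086, 3L 22288665-22292810) and IleRS-m (FBgn0036569, 3L 16100280-16103482), the cytosolic and mitochondrial isoleucine enzymes, and PheRS-m. IleRS gave log2 IP/input values of -0.68, -1.18 and -1.01 in control basal heads (fitted -0.95, SE 0.10, adjusted p = 1.33e-05). IleRS-m gave -0.84, -0.71 and -1.25 (fitted -0.92, SE 0.17, adjusted p = 0.000537). PheRS-m gave -0.70, -0.78 and -1.14 (fitted -0.86, SE 0.10, adjusted p = 2.28e-05). Every replicate of the 3 genes lay well below 0. PheRS-m thus joined the highest level per length with one of the lowest IP/input ratios.

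The same direction held in the other groups. In RNAi basal heads 28 members were lower (38.4% of all genes) and 2 higher (35.4%), with a median of -0.55. In UAS basal heads 15 were lower (31.3%) and 2 higher (31.1%), with a median of -0.23, and these 17 calls dropped to 11 without replicate 2 and to 8 without replicate 3. In control HS heads 26 were lower (35.7%) and 2 higher (35.0%), with a median of -0.54, and in UAS HS heads 22 were lower (35.8%) and 2 higher (33.6%), with a median of -0.43. The 2 higher genes were HisRS and SerRS in each of these groups.

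Across the 5 groups 13 of 33 members were lower in all, beside 25.2% of the 9765 genes tested in every group, and 2 were higher in all, beside 27.8%. Of the members 27 lay below 0 in all, and AsnRS was called in none. All these calls of IP against input come from fits without the pairing of IP and input. Counts with the replicate block are given at the end. IleRS ranged from -0.70 in UAS basal to -1.22 in UAS HS heads, IleRS-m from -0.64 in UAS basal to -1.47 in control HS heads, and PheRS-m from -0.67 in UAS basal to -1.21 in control HS heads. HisRS ranged from 0.46 in control basal to 0.76 in UAS HS heads and SerRS from 0.23 to 0.41. The replicates of IleRS-m in control HS heads spread from -2.12 to -1.10, against -1.26 to -1.17 for PheRS-m, whose counts are higher.

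**Figure D4:**
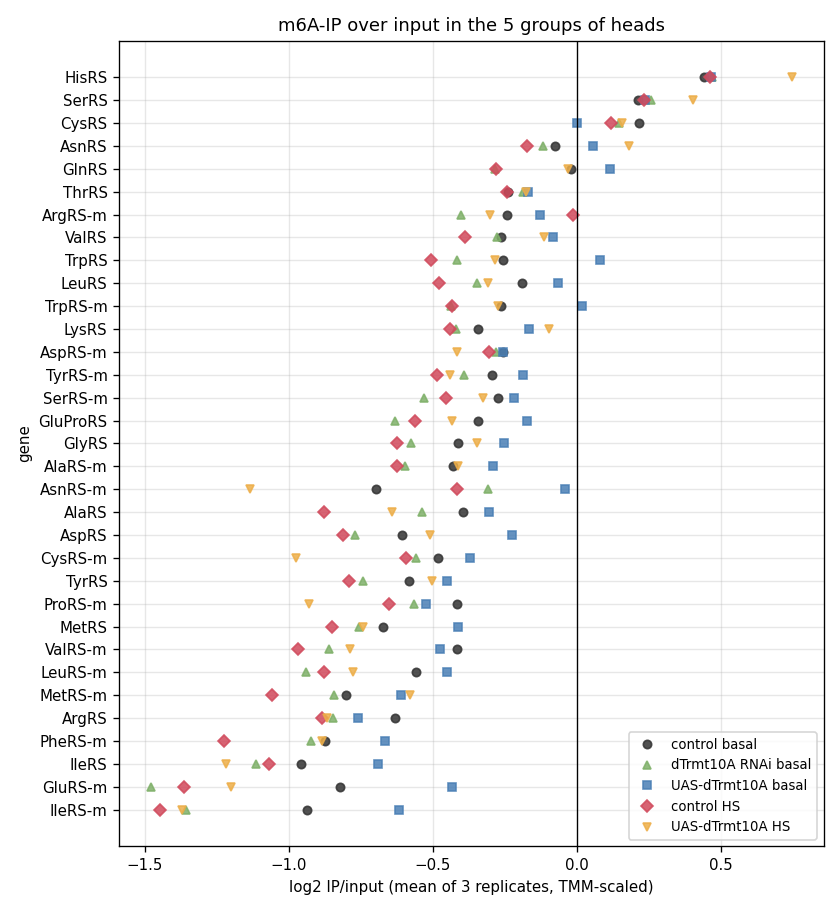
Log2 IP/input of each synthetase gene in the 5 groups, as the mean of 3 replicates. HisRS and SerRS stay above 0 in every group, and most other genes lie below it, with IleRS, IleRS-m and PheRS-m at or below -0.62.

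Some features of the transcripts varied with the ratio. Spearman's rho between log2 IP/input in control basal heads and exon length outside the longest coding sequence was 0.40 over the members. Over the 9013 annotated protein-coding genes tested it was 0.39. The median of that length was 337 bases for members and 592 for those genes. HisRS held 1170 such bases and SerRS 408. For the pentamer AAACA per kilobase the values were -0.04 and 0.27, and for average log2 CPM 0.48 and 0.29. These are descriptions across genes of the same libraries.

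Differences in IP/input between groups rarely passed the test without the pairing of IP and input, although some genes had replicates without overlap. RNAi against control basal heads called 0 of 33 members and 0% of all 10343 genes, with 2 members at an unadjusted p below 0.05. The members' median difference was -0.16 (all genes -0.01), and 29 of 33 lay below 0. LeuRS-m had the smallest p, with a difference of -0.40 (adjusted p = 1.00). UAS against control basal heads also called 0 members and 0% of all genes in edgeR's quasi-likelihood test, with 3 members below an unadjusted p of 0.05, a median of 0.13 and 4 of 33 below 0. DESeq2's Wald test called 0 members in both. The control basal libraries enter both differences, so the opposite signs of the medians are not separate results.

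Because the IP and input of a replicate come from the same RNA, the differences were also fitted with each RNA sample as a replicate block. This fit called 0 members for RNAi (0.0290% of all genes). For UAS against control basal heads it called AspRS as higher, 1 of 33 members beside 7.97% of all genes. Its log2 IP/input was -0.44, -0.73 and -0.65 in control basal and -0.14, -0.20 and -0.33 in UAS basal heads, which did not overlap. The difference was 0.38, with an adjusted p of 0.229 without the block and 0.0184 with it in edgeR's quasi-likelihood test. The UAS basal inputs of AspRS enter this difference and also its RNA differences and interaction above, so these are not separate results. The antisense overlap given for AspRS applies here too.

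Heat changed IP/input of 0 of 33 members in control heads (0% of all genes called) and of 0 of 33 in UAS-dTrmt10A heads (0.0378%), with 4 and 8 members at an unadjusted p below 0.05. The medians were -0.17 and -0.16, with 28 and 24 of 33 members below 0. With the replicate block, AlaRS, the alanine enzyme, was called in control heads (difference -0.46, adjusted p = 0.0314, against 0.284 without the block), beside 1.81% of all genes. In UAS-dTrmt10A heads the block called 5 members beside 18.6% of all genes, with AsnRS-m (-1.08), CysRS-m (-0.55), IleRS (-0.48) and TrpRS (-0.32) lower and HisRS (0.33) higher. AsnRS-m rests on 20 to 37 IP counts per UAS HS library and CysRS-m on 52 to 91. DESeq2's Wald test called IleRS in UAS-dTrmt10A heads and 0 members in control heads. IleRS stood at -0.73, -0.54 and -0.80 in UAS basal and at -1.19, -1.28 and -1.18 in UAS HS heads, without overlap.

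Between the heated groups, UAS-dTrmt10A against control HS called 0 of 33 members in edgeR's quasi-likelihood test, beside 0.945% of all genes, with 10 members at an unadjusted p below 0.05. The median difference was 0.18 (all genes 0.05), with 6 of 33 below 0. LysRS, the lysine enzyme, gave log2 IP/input values of -0.37, -0.37 and -0.58 in control HS and -0.18, -0.07 and -0.04 in UAS HS heads. The groups did not overlap, and the difference was 0.39 (SE 0.10, adjusted p = 0.0867, and called by DESeq2's Wald test). PheRS-m gave -1.17, -1.26 and -1.25 in control HS and -0.84, -0.80 and -1.01 in UAS HS heads (difference 0.40, adjusted p = 0.0977). With the replicate block 6 members were called higher, beside 12.5% of all genes, namely AsnRS (0.40), LysRS (0.39), PheRS-m (0.39), AspRS (0.35), HisRS (0.34) and TyrRS (0.33).

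Reads from stretches shared with neighbouring genes could be missing from some of these values, since the counting is not stated to use strand. Besides AspRS and HisRS, exons of GluProRS are overlapped by asRNA:CR46092 over 16.6% of their length, those of CysRS-m by CG13016 over 14.3%, those of SerRS-m by Nagk over 13.9% and those of ArgRS-m by mRpS9 over 11.8%, all on the opposite strand. The share of reads lost in these stretches was not tested.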

How the data were processed

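The authors trimmed reads with Trim Galore, aligned them to dm6 with STAR 2.7.3a, removed unmapped and improperly paired reads, and deposited counts per gene over FlyBase exons (union mode). Whether strand, multiple hits or duplicates were handled is not given in the sources used here. The 30 libraries (5 groups, 3 replicates, input and IP) were read from the deposited count tables. Input libraries held a median of 23882157 counts and IP libraries 18674624.

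From the 17562 genes, filterByExpr (minimum count of 10 and a total of 15) kept 10080 to 10588 per comparison. These were fitted with edgeR 4.0.16 in R 4.3.3 (TMM, quasi-likelihood F-test), using only the groups compared. Adjustment was by Benjamini-Hochberg over all genes tested, with a threshold of 0.05. IP/input differences were interaction terms. Alternatives were DESeq2 1.42.0 size factors and Wald test, total library size, no filter, a replicate block, and leaving out each replicate. Steps were tested on simulated data. CPM per kilobase used exons of the Ensembl annotation of dm6, matched by symbol for all 33 members.

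IP and input of a replicate come from the same RNA, and their deviations correlated at 0.387 to 0.711 over 8055 genes. Same-numbered control HS and UAS HS inputs correlated at 0.195 to 0.445, while other input pairs did not reach 0.1 throughout.

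In each comparison, values in every library were given for up to 6 called members with the largest changes, or for the 2 with the smallest p. Members and lists were chosen with earlier results of these data known. Counts of members at an unadjusted p below 0.05 stand without the share of all genes, and are not a result about the members.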

Additional observations from a re-analysis of the deposited data

How the results depend on the processing

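Counts of synthetase genes called were the most sensitive to scaling under heat: with total library size 33 fell in control and 32 in UAS-dTrmt10A heads. For the interaction of heat and genotype DESeq2's Wald test called 1 gene. For changes in IP/input, the replicate block called 1 gene for UAS-dTrmt10A without heat, 1 for heat in control heads, 5 for heat in UAS-dTrmt10A heads and 6 for UAS-dTrmt10A within heat, total library size called 4 for heat in UAS-dTrmt10A heads, and DESeq2's Wald test called 1 for heat in UAS-dTrmt10A heads and 1 for UAS-dTrmt10A within heat. For RNA, the replicate block gave 18 calls for heat in control heads and 17 in UAS-dTrmt10A heads. It called 28, 30, 23, 30 and 28 for IP/input in control basal, RNAi basal, UAS basal, control HS and UAS HS heads. These block counts for RNA and IP/input, and those below, stand without the share of all genes and show sensitivity only.

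Leaving out 1 replicate gave 14 to 18 calls for heat in control heads (20 with all), 11 to 16 in UAS-dTrmt10A heads (17 with all; 11 without UAS-dTrmt10A HS replicate 1), and for IP/input 15 to 23 in control basal (26 with all; 17 without replicate 2 and 15 without replicate 3), 24 to 27 in RNAi basal, 8 to 19 in UAS basal (17 with all; 11 without replicate 2 and 8 without replicate 3, whose input is the deepest), 21 to 27 in control HS and 20 to 22 in UAS HS heads. All other comparisons gave 0 calls with any 1 replicate left out. Of 734 refitted values of single genes, 682 kept their direction and side of the threshold, 32 lost and 19 gained a call, and 1 turned, SerRS IP/input in control HS heads, at -0.023 under total library size. Depth limits the scarcest mitochondrial genes most, as GluRS-m held 44 to 156 input counts, AsnRS-m 34 to 278 and ProRS-m 51 to 378. PheRS-m, also mitochondrial, held 759 to 2935 input counts. IP counts reached lower values, with 7 to 30 per control HS library for GluRS-m.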
